A study of Mus musculus with 22 samples.

Results

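CTCF peaks that were listed at 24 h but not at 0 h of erythroid differentiation, and that lay in chromatin with an active histone mark at 24 h, were examined in mouse G1E-ER4 (G1ER) cells. They numbered 1647 of the 41473 CTCF peaks of the 24 h list. Of these 1647 peaks, 1478 (89.7%) already overlapped H3K4me3 or H3K27ac at 0 h, and 169 did not. About as many lay at promoters (849) as away from them (798), and the promoter peaks were marked at 0 h in 845 cases. Away from promoters, H3K27ac overlapped 64.7% ± 0.532 (SD, n = 2 lists) of them at 0 h and 72.1% ± 0.354 at 12 h. Marked CTCF peaks present at both times went from 68.3% and 66.6% to 71.9% and 72.0%. The trend of the difference missed the threshold (exact permutation test, p = 0.0794 adjusted over 12 tests, with the split by place made after the values were seen). Over all members, the trend of the H3K27ac difference had a rho of 0.439 (exact permutation p of 0.3), and at promoters rho was -0.488. The CTCF motif core was found in 437 of the 1647, and 291 of these 437 cores had the same 12 letters and lay in repeat-masked sequence. Of the cores of all 24 h CTCF peaks, 43.2% had these letters, and of those of 24 h-only peaks without a mark 68.0%.

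G1E-ER4 cells are 1 line of mouse erythroid progenitors that lack endogenous GATA1 and carry a GATA1 fusion with the hormone-binding part of the estrogen receptor. All samples came from these cells grown with SCF and erythropoietin, and β-estradiol, which activates the fused GATA1, was the only treatment that differed between groups. Cells at 0 h were untreated progenitors, and cells at 24 h had been in β-estradiol for 24 h. The 22 ChIP-seq peak lists comprised 10 for H3K4me3 and 10 for H3K27ac (2 replicates at each of 0, 2, 6, 12, and 24 h) and 1 for CTCF at each of 0 and 24 h. The labels do not say whether replicates were separate cultures, so p-values measure only the spread between these lists. The lists hold positions and a peak-caller score and no reads, so depth is unknown, and a site without the protein cannot be told apart from one under the calling threshold. As a check of cell identity, H3K4me3 lay within 1 kb of a TSS in all 4 lists at 0 and 24 h for 6 of 8 erythroid marker genes. Tal1 had none, Zfpm1 had it at 0 h only, and all 16 markers of T cells, B cells, granulocytes and monocytes, and hepatocytes had none in any of the 4.

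CTCF is a zinc finger protein that binds a long DNA motif and, together with cohesin, marks the anchors of chromatin loops and the borders of insulated domains. H3K4me3 is laid down at active promoters, whereas H3K27ac marks active promoters and enhancers. In rodents, copies of a short interspersed repeat family, B2, are known to carry a CTCF binding sequence, so that CTCF sites differ between lineages where these repeats spread.

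The sequences of 7 members are shown first, because most members with a CTCF motif had the same core letters. Each is the 100 bases around the CTCF core, a 12-letter pattern from the middle of the known motif, which is in capitals. They are written 5′ to 3′ on the strand of the core, with coordinates and letters of the RefSeq GRCm38 genome, and named by the nearest gene (that of Shisa8 lies in an intron of Srebf2). The first 5 have the core letters that were commonest among members, and the last 2 have others.
Epor, chr9:21964552-21964651, plus strand: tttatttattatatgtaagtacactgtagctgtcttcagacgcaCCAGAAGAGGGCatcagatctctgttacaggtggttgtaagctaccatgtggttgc
Hemgn, chr4:46401788-46401887, plus strand: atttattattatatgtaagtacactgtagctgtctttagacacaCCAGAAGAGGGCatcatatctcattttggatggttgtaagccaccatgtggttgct
Trrap, chr5:144807904-144808003, minus strand: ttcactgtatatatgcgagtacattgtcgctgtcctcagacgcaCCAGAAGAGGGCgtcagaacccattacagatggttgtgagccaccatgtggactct
Caprin1, chr2:103873249-103873348, plus strand: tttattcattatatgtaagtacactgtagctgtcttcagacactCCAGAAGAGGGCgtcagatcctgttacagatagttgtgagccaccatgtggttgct
Shisa8, chr15:82182461-82182560, plus strand: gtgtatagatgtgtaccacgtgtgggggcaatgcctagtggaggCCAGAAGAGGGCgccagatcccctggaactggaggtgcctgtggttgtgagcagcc
Podxl, chr6:31639612-31639711, minus strand: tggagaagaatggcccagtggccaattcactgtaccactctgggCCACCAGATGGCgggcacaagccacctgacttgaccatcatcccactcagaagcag
Rnf20, chr4:49640081-49640180, plus strand: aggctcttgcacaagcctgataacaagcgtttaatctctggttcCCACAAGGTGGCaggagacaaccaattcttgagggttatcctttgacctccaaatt

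The members were chosen by position alone. Of the 41473 CTCF peaks of the 24 h list, 26.7% overlapped no peak of the 0 h list (33193 peaks), and 17.6% overlapped a peak of at least 1 of the 4 histone lists at 24 h. The 1647 peaks met both conditions, with an overlap of 1 bp or more. They were set beside 9412 CTCF peaks that were also 24 h-only but had no mark, and 5641 that had a mark at 24 h and overlapped a 0 h CTCF peak (shared marked peaks). A mark was present at 14.9% of 24 h-only CTCF peaks and at 18.5% of shared ones. In the reverse direction, 350 of 2611 CTCF peaks found only at 0 h (13.4%) had a mark at 0 h. The 3 members nearest to a 0 h CTCF peak lay 17, 28, and 97 bp from it, and the shared marked peaks with least overlap shared 87, 141, and 147 bp with one. The weakest overlaps of a member with a mark were 6, 8, and 11 bp, and 30 members had under 50 bp in every 24 h list. Both CTCF lists and the 4 histone lists at 24 h chose the members, so their values there are a description.

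The members were weak CTCF peaks. Their median score was 68.6, with a range from 50.0 to 312, against 269 for shared marked peaks and 71.6 for 24 h-only peaks without a mark. Only 55 of the 1647 (3.34%) reached the median of the 24 h list, 150, and the lowest score in any list was 50.0. Members were 827 bp long at the median, and shared marked peaks 1084 bp. The 0 h-only peaks with a mark had a median score of 60.8 in the 0 h list, whose own median was 120. Ranked within their own lists, these peaks had a median percentile of 12.4 and the members one of 16.0. When the 24 h list was cut to as many top-scoring peaks as the 0 h list holds, 662 members remained. The nearest 0 h CTCF peak lay a median of 10496 bp away, and 82 members (4.98%) had one within 1 kb.

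**Figure D1:**
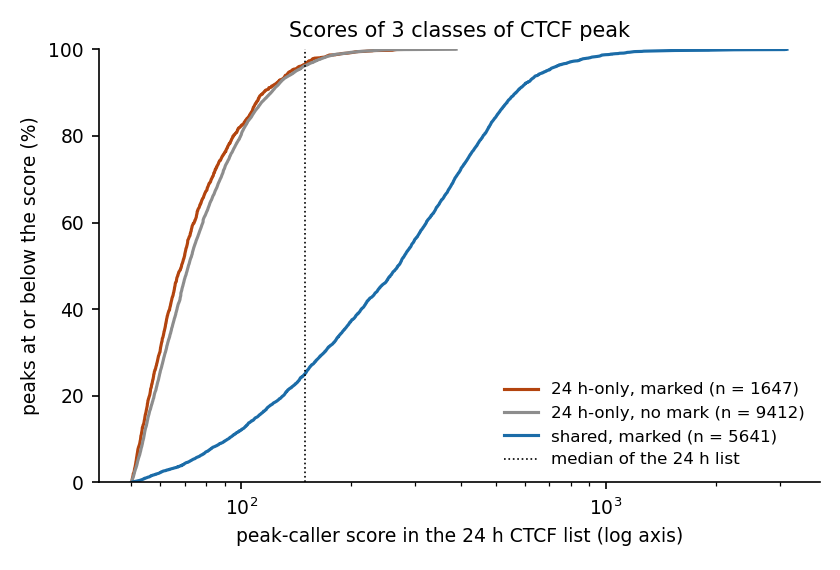
Cumulative share of peaks (y axis, %) at or below each peak-caller score in the 24 h CTCF list (x axis, log scale) for 24 h-only marked, 24 h-only unmarked, and shared marked peaks; the dotted line is the median of the list. The curves of both 24 h-only classes lie together (medians 68.6 and 71.6), far to the left of the shared marked peaks (median 269).

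Most members lay well inside marked chromatin. The whole CTCF peak fell inside 1 peak of a 24 h histone list for 1191 members (72.3%). The members lay in 1616 separate marked regions, 31 of which held 2 members, and 121 members (7.35%) shared their region with a shared CTCF peak. Peaks within 1 kb of a protein-coding TSS made up 51.5% of members (95% Wilson interval 49.1% to 54.0%, which covers counting only), where 10.6% of all 24 h CTCF peaks did. Among shared marked peaks this share was 46.0% (44.7% to 47.3%), and among 24 h-only peaks without a mark 2.31%. A further 483 members (29.3%) lay in introns, 287 (17.4%) between genes, 16 in UTRs, and 12 in coding exons. Of shared marked peaks, 24.4% lay in introns and 26.9% between genes, and of all 24 h CTCF peaks 44.6% and 41.5%. The differences in place were not tested. The 849 promoter members lay nearest to 843 different genes.

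Of the members, 1037 (63.0%) had both marks at 24 h, 509 (30.9%) H3K27ac alone, and 101 (6.13%) H3K4me3 alone. At promoters, 787 of 849 (92.7%) carried both marks. Away from promoters, 492 of 798 (61.7%) carried H3K27ac alone and 250 (31.3%) both. The 24 h lists chose the members, so these counts are a description. Per list at 24 h, H3K4me3 overlapped 67.1% and 66.8% of members and 68.8% and 69.8% of shared marked peaks. H3K27ac overlapped 87.2% and 84.1% of members and 83.0% and 81.3% of shared marked peaks. Of all 24 h CTCF peaks, H3K4me3 overlapped 12.0% and 12.1%, and H3K27ac 14.8% and 14.4%.

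The first question was whether the mark was already there at 0 h. It was at 89.7% of members (88.2% to 91.1%), against 90.9% of shared marked peaks and 17.6% of all 24 h CTCF peaks. At promoters, 99.5% of members had a mark at 0 h, and away from promoters 79.3% (76.4% to 82.0%). Of shared marked peaks, 98.8% had one at promoters and 84.1% (82.8% to 85.4%) away from them. These intervals cover counting over peaks, which are not replicates, and the difference between both classes was not tested. Of 1138 members with H3K4me3 at 24 h, 1106 (97.2%) had it at 0 h, which compares with 96.9% of shared marked peaks. Of 1546 members with H3K27ac at 24 h, 1356 (87.7%) had it at 0 h, which compares with 88.3%. Across the time course, 827 members (50.2%) overlapped a peak in all 20 histone lists, against 49.2% of shared marked peaks. The share marked at 0 h was 85.5% among the 55 members with the highest scores, and 95.6% when a mark had to be in both 24 h replicates.

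H3K27ac overlapped more of the members in the later lists. Over all members, the 0 h lists overlapped 79.7% and 79.6%, the 2 h lists 79.8% and 81.6%, the 6 h lists 82.2% and 81.5%, and the 12 h lists 82.9% and 82.5%. Both 12 h lists lay above all 6 earlier ones, and both 0 h lists below all others. Spearman's rho against hours over these 8 lists was 0.927 and Pearson's r 0.888. The members had to carry a mark at 24 h, which favours shares that rise toward 24 h, so these values are a description and no p is given for them. The lists at 24 h, which the rule used, overlapped 87.2% and 84.1%.

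Shared marked peaks, which had to meet the same condition at 24 h, were the comparison. The H3K27ac lists overlapped 77.6% and 77.1% of them at 0 h and 79.7% and 79.6% at 12 h, and the share of all 24 h CTCF peaks with H3K27ac went from 14.6% and 14.4% to 14.9% and 14.8%. The difference between members and shared marked peaks showed no trend that passed the test (rho of 0.439 with an exact permutation p of 0.3, also when adjusted, and r of 0.358 with one of 0.374). H3K4me3 overlapped 66.8% and 68.0% of members at 0 h and 66.5% and 65.6% at 12 h. Its rho was -0.586, and its difference from shared marked peaks showed no trend that passed the test either (rho of 0.537, exact permutation p of 0.19, or 0.254 after adjustment).

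Promoter and other members were then taken apart, a choice made after the values had been seen. Away from promoters, the 0 h lists of H3K27ac overlapped 65.0% and 64.3% of the 798 members, the 2 h lists 66.3% and 69.0%, the 6 h lists 70.6% and 69.4%, and the 12 h lists 72.3% and 71.8%. The lists of the first and last of these times did not overlap in value with any other. Spearman's rho was 0.976 and r 0.917, again as a description, since 742 of these 798 members carried H3K27ac at 24 h by the choice of members. The 3045 shared marked peaks away from promoters went from 68.3% and 66.6% to 71.9% and 72.0%. The difference between both classes went from -3.24 and -2.35 percentage points at 0 h to 0.385 and -0.215 at 12 h. Its rho of 0.830 had an exact permutation p of 0.0198, which became 0.0794 after adjustment over the 12 tests. Its r of 0.689 had one of 0.0639, or 0.256 after such adjustment. Without the 12 h lists, r was 0.359 (exact permutation p of 0.4). The 12 tests include trends within members alone, which are a description here, and counting them made the adjusted values smaller. This difference missed the threshold once all 12 tests were counted. It is also not free of the choice by marks at 24 h, since either mark sufficed and the classes differed in H3K4me3. The 24 h lists of H3K4me3 overlapped 34.8% and 34.6% of these members and 45.4% and 46.7% of these shared marked peaks. At promoters, the share of members with H3K27ac was 93.4% and 94.0% at 0 h and 92.9% and 92.6% at 12 h, with a rho of -0.614.

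**Figure D2:**
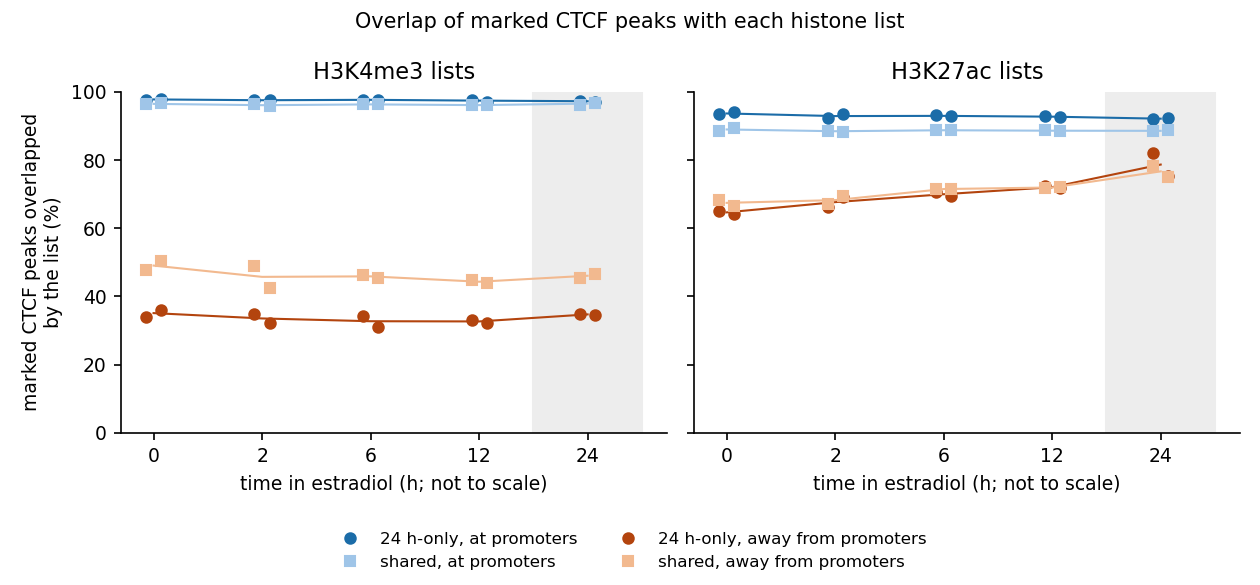
Percent of marked CTCF peaks overlapped by each H3K4me3 list (left) and H3K27ac list (right) against hours in estradiol; circles are 24 h-only peaks and squares shared peaks, blue at and orange away from promoters, with 1 point per list and lines through the means of 2 lists. The grey band holds the 24 h lists, which chose the peaks; before it, H3K27ac away from promoters goes from 65.0% and 64.3% to 72.3% and 71.8% of 24 h-only peaks and from 68.3% and 66.6% to 71.9% and 72.0% of shared ones, while H3K4me3 at shared peaks away from promoters goes from 47.8% and 50.3% to 44.8% and 43.8%.

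A mark that is new by 12 h, in both 12 h lists and neither 0 h list of that mark, was found at 45 members (2.73%). Of all 24 h CTCF peaks, 0.518% met this condition, and of shared marked peaks 2.48% did. In 44 cases the new mark was H3K27ac, against 0.485% of all 24 h CTCF peaks and 2.3% of shared marked peaks. In 1 case it was H3K4me3, against 0.0338% and 0.177%. Of the 45 members, 39 lay away from promoters. In the opposite direction, 17 members had H3K27ac in both 0 h lists and neither 12 h list, against 0.333% of all 24 h CTCF peaks, and 13 had H3K4me3 so, against 0.263%. These were 1.03% and 0.789% of members, and the shares among shared marked peaks were 1.24% and 1.31%. The members' mark at 24 h favours new over lost marks. Leaving out 1 of the 4 H3K27ac lists at 0 or 12 h loosens the condition for a new mark, so the count could not fall. It rose to 76 to 87, and thus depends on how many lists the condition asks for.

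The highest-scoring member with a new mark lay between genes, at chr6:31639090-31640170 (GRCm38), 75109 bp from the TSS of Podxl, which encodes the surface sialomucin podocalyxin. Within 2 kb centred on it, H3K27ac covered 0 bp in both 0 h lists, 0 and 2000 bp in the 2 h lists, 1086 and 991 bp in the 6 h lists, 2000 and 1993 bp in the 12 h lists, and 2000 and 0 bp in the 24 h lists. The mark was thus absent from both 0 h lists, present in both lists at 6 and 12 h, and missing again from the second 24 h list. No H3K4me3 list covered any of this window.

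A second one lay in an intron of Mcm3ap, at chr10:76493142-76494122, with Ybey as the nearest TSS. H3K27ac covered 0 bp in both 0 h lists, 1400 and 0 bp at 2 h, and between 1318 and 1496 bp in each of the 6 lists from 6 h on. The window held the NF-E2/AP-1 letters and an E-box. In an intron of Rnf20, whose product is a ubiquitin ligase for histone H2B, the member at chr4:49639836-49640481 went from 0 bp in both 0 h lists to 883 and 1799 bp at 12 h and 2000 and 1017 bp in the 24 h lists. At chr2:103872721-103873668, between genes and nearest to Caprin1, H3K27ac covered 0 bp in both 0 h lists, 0 and 77 bp in the 2 h lists, 257 and 1258 bp in the 6 h lists, 1041 and 1120 bp in the 12 h lists, and 0 and 1058 bp in the 24 h lists. Arfgap3, Star, and Hsfy2 were the nearest genes of 3 more. The promoter of Hmga1, which encodes an architectural chromatin protein, was the highest-scoring promoter member with a new mark, at chr17:27556922-27558333. All 10 H3K4me3 lists covered its whole 2000 bp window, while H3K27ac covered 0 bp in both 0 h lists and 2000 bp in 7 of the 8 later lists.

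The 169 members without a mark at 0 h comprised 113 in introns (66.9%), 48 between genes, and 4 at promoters. Of all members away from promoters, 60.5% lay in introns, and of 24 h-only peaks without a mark 53.3%. By the choice of this class, its coverage at 24 h had to exceed that at 0 h at the CTCF peak, so its values are a description. Of the 169, 159 carried H3K27ac without H3K4me3 at 24 h. The mark was first listed at 2 h for 52, at 6 h for 29, at 12 h for 27, and at 24 h for 61. In 106 of the 169 the mark stood in only 1 of the 4 lists at 24 h, so that these members rest on a single list. The 2 kb window of an intronic member of Trrap, at chr5:144807509-144808180, had no H3K27ac coverage in the 6 lists up to 6 h. It had 377 and 883 bp at 12 h and 627 and 1554 bp at 24 h. The CTCF peak itself overlapped only 2 H3K27ac lists, and the member did not count as having a mark new by 12 h. Trrap encodes a scaffold of histone acetyltransferase complexes. The window of the member nearest to Atp23 had 1458 bp in 1 list at 6 h, 1273 bp in 1 list at 12 h, 1370 bp in 1 list at 24 h, and 0 bp in each partner list. That CTCF peak overlapped 3 H3K27ac lists.

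Not every member of this class started from bare chromatin. The member in an intron of Srebf2 had 599 and 545 bp of H3K27ac within its 2 kb window at 0 h and 680 and 679 bp at 24 h, with the 0 h peaks stopping short of the CTCF peak itself. The one nearest to Rpl3 had 101 and 143 bp at 0 h and 846 and 663 bp at 24 h.

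**Figure D3:**
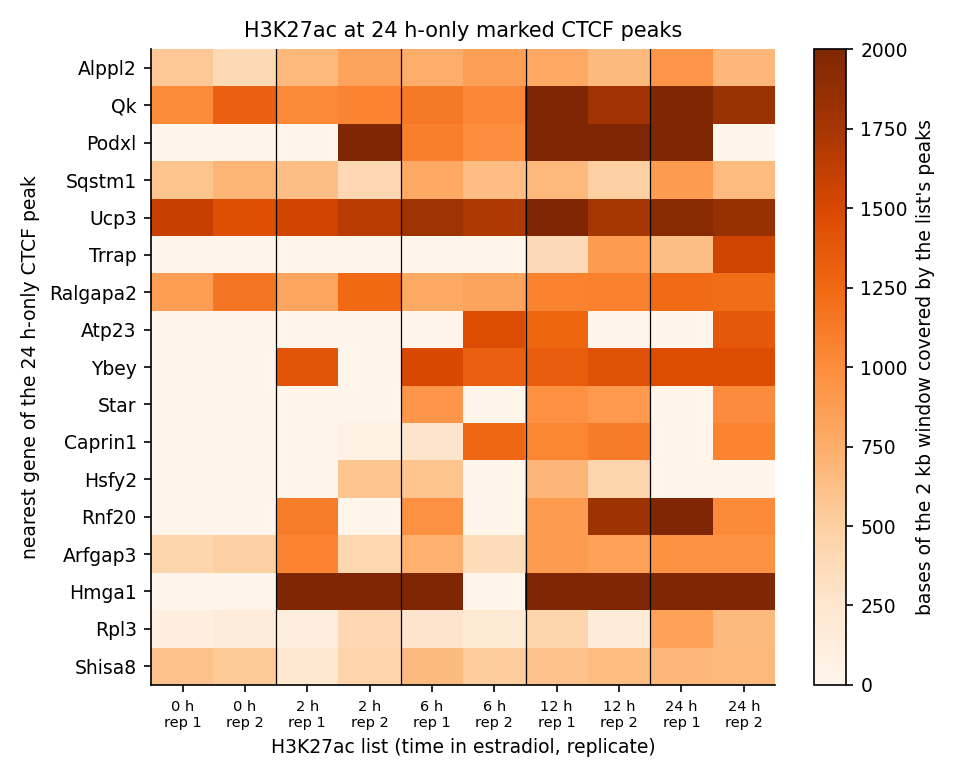
Bases of the 2 kb window around each CTCF peak (rows, by nearest gene) that peaks of each H3K27ac list cover (columns, by hours in estradiol and replicate), for the highest-scoring members away from promoters, with a mark new by 12 h, or with no mark at 0 h. Windows such as that of Ucp3 were covered in all 10 lists (1441 to 2000 bp), whereas those of Podxl, Trrap, and Ybey were at 0 bp in both 0 h lists.

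The sequence under the members was next compared with that of the other classes. The CTCF core, a 12-letter pattern from the middle of the known motif, was searched on both strands of 300 bp windows centred on each peak. It was present at 437 of 1647 members (26.5%, 24.5% to 28.7%), against 2.79% of windows 5 kb beyond the same peaks and 0.911% with the pattern reversed. Of all 24 h CTCF peaks, 50.3% held it. At promoters, 13.9% of members held it (11.7% to 16.4%), and away from promoters 40.0% (36.6% to 43.4%). Among the 169 without a mark at 0 h it was 49.7% (42.3% to 57.2%), against 57.6% of the 24 h-only peaks without a mark. Shared marked peaks held it at 33.7% (32.5% to 34.9%). Limited to scores from 50.0 to 115, the share was 25.2% for members and 27.7% for shared marked peaks, whose intervals overlap (23.0% to 27.4% and 24.9% to 30.6%), and 57.9% for 24 h-only peaks without a mark. Within this range the median score was 65.6 for members and 84.1 for shared marked peaks, so the range was matched and not the scores.

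Of the 437 cores of members, 291 (66.6%, 62.0% to 70.9%) read CCAGAAGAGGGC, and all 291 lay in letters that RefSeq soft-masks as repeats or low-complexity sequence. Of the 20867 cores of all 24 h CTCF peaks, 9011 (43.2%) had these letters, and 8998 of those 9011 were soft-masked. Counted over peaks, 17.7% of members and 21.7% of all 24 h CTCF peaks had this core. In all, 346 of the 437 cores (79.2%, 75.1% to 82.7%) lay in soft-masked sequence. The resemblance went beyond the core. Around the commonest core, the median position had the same letter in 75.6% of members on the 5′ side and 76.6% on the 3′ side, over 44 positions each. Around the 146 other cores these values were 33.6% and 34.2%. Pairs of the 291 stretches were identical at a median of 68% of their 100 bases. No repeat annotation was used here, so the family of each copy was not assigned.

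Among shared marked peaks, 30.6% of cores had these letters (28.5% to 32.7%) and 40.7% were soft-masked. Among 24 h-only peaks without a mark the shares were 68.0% and 80.5%, against 66.6% and 79.2% of the members. Among 0 h-only peaks with a mark they were 67.6% and 78.4%, and among all 24 h CTCF peaks 43.2% and 54.8%. Within the scores of 50.0 to 115, the commonest core made up 67.6% of cores in members (62.7% to 72.1%) and 63.7% in shared marked peaks (57.6% to 69.3%), whose intervals overlap. Cores outside soft-masked sequence were present at 5.53% of all members (4.52% to 6.74%) and at 1128 of the 5641 shared marked peaks. Within the same score range these shares were 5.06% and 5.95%. The commonest core was at 7.42% of members at promoters, at 28.6% of those away from promoters, and at 37.3% of the 169 without a mark at 0 h. It was at 39.1% of 24 h-only peaks without a mark and at 21.7% of all 24 h CTCF peaks. Within the scores of 50.0 to 115, it was at 28.0% of members away from promoters and 24.4% of such shared marked peaks. Without the peaks that have it, a choice made after its letters were seen, the core was present at 10.8% of the remaining members.

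**Figure D4:**
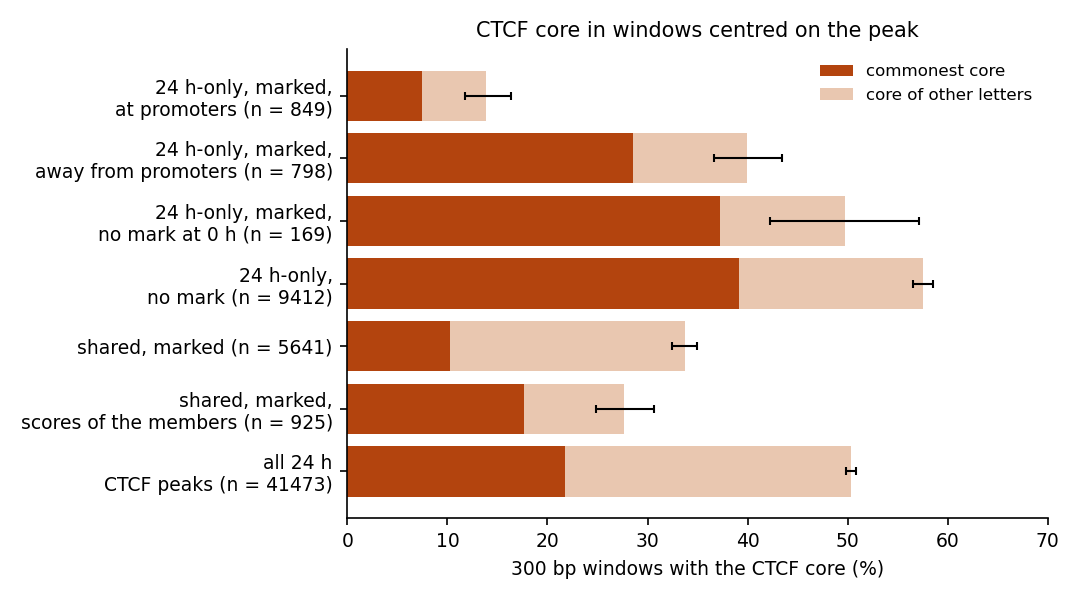
Percent of 300 bp windows centred on the CTCF peak that hold the CTCF core (x axis) in 7 classes of peak (rows), split into the commonest core letters (dark) and all others (light); the bars end at the total, with its 95% Wilson interval. The dark part is 28.6% away from promoters and 7.42% at promoters among 24 h-only marked peaks, and 10.3% among shared marked peaks. It is 39.1% among 24 h-only peaks without a mark and 21.7% among all 24 h CTCF peaks.

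The second commonest core, CCCTTAGGTGGC, stood apart from the first and was singled out after its count was seen. It was present at 15 members on 10 chromosomes, all 15 soft-masked, and at 21 CTCF peaks of the 24 h list in all, 20 of which had a mark. In 11 of the 15, the 100 bases around the core were the same letter for letter, and the lowest identity of any pair was 82%. All 15 had a mark at 0 h, 14 had both H3K4me3 lists and 14 both H3K27ac lists at 24 h, and 9 were in all 20 histone lists. Their scores ran from 50.5 to 130. Near-identical copies can exchange reads in alignment, so the position of these peaks is uncertain, and this was not tested.

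Other motifs varied with place. The GATA letters (AGATAA) were in 11.4% of member windows and 10.9% of shared marked ones, against 16.4% of windows 5 kb beyond the members and 7.23% with the letters reversed. Of all 24 h CTCF peaks, 14.0% held them. Members away from promoters held them at 17.3%, those at promoters at 5.77%, and the 169 without a mark at 0 h at 20.7%. CACC boxes (CCNCNCCC), which KLF family proteins bind, were at 56.2% of promoter members, 22.3% of the others, and 21.4% of all 24 h CTCF peaks, and the reversed letters at 58.2% and 24.6% of the members. The ETS letters (CCGGAAG) were at 11.3% and 2.63% of these members and 2.14% of all peaks, and the NF-E2/AP-1 letters (TGANTCA) at 4.48%, 7.52%, and 8.02%. E-boxes (CAGNTG) were at 55.6% of members and 60.1% of all peaks. Windows at promoters had a median GC content of 64.0% and those away from promoters 45.7%.

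Of the 8 highest-scoring members at promoters, 6 overlapped both marks in all 20 lists. The member with the highest score of this class (263) covered the start of Fzd5, a Wnt receptor gene, at chr1:64735710-64738369. H3K4me3 covered its whole 2000 bp window in all 10 lists, and H3K27ac in 8 of 10. Next came Fto (259), which encodes an RNA demethylase and overlapped both marks in all 10 lists. Zfp68 (230) overlapped H3K4me3 in all 10 lists and H3K27ac in 3. Zfx (229), a zinc finger transcription factor gene on chromosome X, Lztr1, Bend3, Zfp773, and Mcm9 overlapped both marks in every list. Only 2 of these 8 windows, those of Lztr1 and Zfp68, held the CTCF core.

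Away from promoters, the highest score (312) belonged to a member in an intron of Dis3l2, at chr1:86914354-86915271. H3K27ac covered 561 and 393 bp of its window at 0 h, 782 and 657 bp at 12 h, and 936 and 683 bp at 24 h, and no H3K4me3 list covered any of it. The CTCF peak itself overlapped 9 of the 10 H3K27ac lists. Members in introns of Mgat4b and C2cd3 and one near Ralgapa2 overlapped all 10. A member in an intron of Qk, 1393 bp from the TSS of this RNA-binding protein gene, was in all 20 lists. Its H3K27ac coverage was 1014 and 1314 bp at 0 h and 2000 and 1824 bp at 24 h.

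Erythroid genes were next considered. A gene was counted when a member overlapped its body or lay within 5 kb of its start. Members touched 11 of 59 erythroid genes (18.6%), 2 of 28 progenitor and mast cell genes, and 1 of 20 genes for CTCF and cohesin factors. They touched 7 of 41 genes whose promoters were captured in the study, though not always at the promoter. Of all protein-coding genes they touched 1614 of 21924 (7.36%). Shared marked peaks touched 54.2% of the erythroid genes and 4611 of all protein-coding genes. These counts are a description of the lists, with no test.

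Epor, which encodes the erythropoietin receptor, had 2 members in the same marked region. The one at chr9:21964047-21965065, 541 bp from the TSS, had a score of 149 and holds the repeat-masked core printed above. H3K4me3 covered from 709 to 963 bp of its window in the 10 lists, whereas H3K27ac covered 1362 bp in replicate 2 at 0 h, 1081 bp in replicate 2 at 2 h, and 0 bp in the other 8 lists. The second, at chr9:21961188-21962367, showed the same 2 H3K27ac lists and had H3K4me3 over its whole window in all 10. The 2 replicates at 0 and 2 h thus went apart, and every later list had no H3K27ac there.

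Hemgn, a hematopoietic gene active in erythroid cells, had an intronic member 1928 bp from its TSS. H3K4me3 covered 856 and 703 bp of its window in the 0 h lists, 1053 and 754 bp in the 2 h lists, 963 and 1127 bp in the 6 h lists, 1211 and 1368 bp in the 12 h lists, and 1863 and 1891 bp in the 24 h lists. H3K27ac covered from 977 to 1460 bp in the 8 lists up to 12 h, and 0 bp in both 24 h lists. H3K4me3 coverage was thus higher in both 24 h lists than in both 0 h lists while H3K27ac was listed at 0 in the former. Whether that 0 is a loss of the mark was not tested, since a site under the calling threshold is also listed at 0. Ank1, which encodes ankyrin of the red cell membrane skeleton, had an intronic member whose window was covered by H3K4me3 over 548 and 1174 bp at 0 h and 2000 bp in all 4 lists at 12 and 24 h. H3K27ac went from 996 and 1007 bp at 0 h to 2000 bp in both 12 h lists, and to 0 and 2000 bp at 24 h.

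Other erythroid members differed mainly in H3K27ac. At the promoter of Nfe2, which encodes a subunit of the erythroid factor NF-E2, H3K4me3 covered 2000 bp in 9 of 10 lists and H3K27ac 0 bp in all 10. Slc25a38 and Fech, which encode a mitochondrial glycine carrier and the last enzyme of heme synthesis, had members with H3K4me3 in 10 lists and H3K27ac in none. At the promoter of E2f2, a cell cycle factor gene, H3K4me3 was complete in all 10 lists and H3K27ac covered 2000 bp in 5 of 10. It covered 0 bp in both 0 h lists and 2000 bp in both 6 h lists. The replicates went apart at the other times, with 0 and 2000 bp at 2 h and 2000 and 0 bp at both 12 and 24 h. The member beside Icam5, within reach of the start of Icam4, was in all 20 lists, and that in the promoter of Add2, a membrane skeleton gene, was in 10 H3K4me3 and 7 H3K27ac lists. At Add2, H3K27ac covered 0 bp in replicate 1 and 2000 bp in replicate 2 at each of 0, 12, and 24 h. A listed 0 can thus differ between replicates of the same time.

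The member at the start of Btn1a1, a butyrophilin gene on both the erythroid list and that of captured promoters, lay at chr13:23465582-23466176. H3K4me3 covered from 1432 to 1896 bp of its window, and H3K27ac from 1203 to 1950 bp in 9 lists and 0 bp in replicate 1 at 2 h. Dhrs11 showed 1393 and 1954 bp of H3K27ac at 0 h, 1611 and 0 bp at 12 h, and 0 bp in both 24 h lists, while H3K4me3 covered from 724 to 981 bp in all 10. Sept9 held 3 members in its introns, all of them in all 10 H3K27ac lists. Nipbl, which encodes the cohesin loader, held an intronic member in 8 H3K27ac lists and no H3K4me3 list. Hhex, a homeobox gene of hematopoietic progenitors, and Btg2, an antiproliferative gene, had promoter members in all 20 lists.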

How the data were processed

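Peak lists of 22 ChIP-seq libraries were used. Per the study's methods the authors aligned histone reads to mm10 with Bowtie2, kept unique reads, and called peaks with MACS for each library. How CTCF peaks were called is not given in the sources used here. One label names a human build, but the positions are those of mm10 (GRCm38), since 61.5% to 68.2% of the peaks of each H3K4me3 list held a protein-coding TSS. Peaks were deposited by the authors with a peak-caller score (50.0 to 3176) and no read counts, so precision per peak is unknown.

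Overlap meant 1 bp or more, and a promoter a peak within 1 kb of a GENCODE M21 protein-coding TSS. Motifs were searched on both strands of 300 bp. Trends over time were measured by Spearman's and Pearson's correlation over 8 lists (0 to 12 h) with two-sided exact permutation and Benjamini-Hochberg adjustment over 4 tests (threshold 0.05), and the test was tested on simulated data. Only differences from shared marked peaks are reported with a p, since the mark at 24 h chose both classes. Either mark sufficed, so this choice need not act equally on a given mark in both classes. Wilson intervals (95%) cover counting over peaks, which are not replicates. Named members were the 8 highest scores at promoters, the 8 highest away from them, the 8 highest with a mark new by 12 h, the 6 highest without a mark at 0 h, and the 20 highest touching a gene list. The members and lists were chosen with earlier results of these data known, and the core letters and repeat masking after the sequences were seen. Python 3.11.15, numpy 2.4.6, pandas 2.3.3, scipy 1.17.1, and samtools 1.23.1 were used. One member that the naming rule selects is not reported here.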

Additional observations from a re-analysis of the deposited data

How the results depend on the processing

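Of 148 alternative values, 105 kept their direction and side of the threshold or stayed within the spread, and 43 did not; the causes were not tested. Of the 1647 members, 55 remained with CTCF scores at or above the 24 h median and 662 with an equal number of top-scoring CTCF peaks. The share with a mark at 0 h was 85.5% with the score minimum, 94.1% with 50% of the peak covered, and 95.6% with both 24 h replicates, and 86.9% to 92.7% when 1 list was left out. Members with a new mark by 12 h numbered 2 with the score minimum, 19 with equal peak numbers, and 38 to 87 when 1 list was left out. The promoter share was 49.1%, 57.2%, and 59.0% in the same order of score, coverage, and replicates, 44.5% at 500 bp, 61.0% at 2500 bp, 56.2% with all gene types, and 51.7% to 55.4% when 1 list was left out. The CTCF core share was 36.4%, 20.9%, and 22.9% in that order, 35.0% with a looser and 1.70% with a stricter core, 19.9% in 200 bp, 34.1% in the whole peak, 10.8% without the commonest core (chosen after seeing the data), and 24.5% to 26.5% when 1 list was left out. The stricter pattern does not admit the letters of the commonest core, so peaks with only that core could not count.

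For trends, which within members alone are a description because a mark at 24 h chose them, H3K27ac in members had rho 0.840 with equal CTCF peak numbers and 0.899 to 0.973 when 1 list was left out. With the replicate block it was 0.9; replicate 1 was higher at 3 of 4 time points, and the labels do not say that numbers pair lists. H3K4me3 in members had rho -0.839 with the score minimum and -0.679 to -0.422 when 1 list was left out. Its difference from shared peaks had rho -0.195 with the score minimum, -0.195 with equal list sizes, and 0.349 to 0.808 when 1 list was left out. The H3K27ac difference had rho 0.330 to 0.698 when 1 list was left out, 0.732 with the score minimum, and 0.195 with 50% of the peak covered or both 24 h replicates. Split by place after seeing the data, rho at promoters was -0.0491 for the H3K4me3 difference, -0.614 for H3K27ac, and -0.488 for the H3K27ac difference, which was 0.830 away from promoters. Without reads, the depth behind an absent peak is unknown.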
